A study of Mus musculus with 12 samples.

Results

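The genes Ttr, Folr1, Kcnj13, Clic6, Kl, Aqp1, Otx2, Prlr, Slc4a5 and Enpp2, all known from the epithelium of the choroid plexus, were followed through 12 RNA-seq libraries of mouse striatum. They were taken by gene name from a table of 57132 features. All 10 were in the table, each under a single identifier, and all 10 were among the 13902 features that passed a filter on low counts. Folr1, Kcnj13, Aqp1, Otx2 and Slc4a5 did so on few reads, with a maximum of 33 to 112 counts per library, and passing the filter says nothing of their level in the libraries where they were low.

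The libraries came from C57Bl/6 mice aged 10 months, 6 labelled TAAR5-KO, knockouts of the gene for trace amine-associated receptor 5, and 6 labelled TAAR5-WT, their wild-type littermates. The design of the knockout allele is not given in the sources used here. Both genotypes held males and females, but the count columns carry the numbers NK1 to NK12, which are not tied to an animal or a sex. NK1 to NK6 carry the TAAR5-KO label and NK7 to NK12 the TAAR5-WT label. The tissue was a coronal slice of the forebrain from which the cortex had been cut away, so that whatever else of the slice was left with the striatum entered the RNA. Taar5 itself was counted 1 to 6 times in the libraries labelled TAAR5-KO and 0 to 2 times in those labelled TAAR5-WT, of which 4 had none. Those counts go against the labels, at a depth too low to read an order from, and every direction below is therefore one between labels.

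The choroid plexus is a fold of vascular tissue that hangs in the brain ventricles, and its epithelium makes cerebrospinal fluid. The cells secrete carrier proteins into the fluid, move ions, water and vitamins across themselves through a set of polarized channels and carriers, and are held together by tight junctions. The epithelium is no part of the striatal parenchyma, although the lateral ventricles run along the medial side of the striatum. TTR carries thyroid hormone and retinol-binding protein and is the best known product of this epithelium. In bulk RNA a lower level of these transcripts can stand for fewer choroid plexus cells or for less RNA per cell, and the data cannot tell these apart.

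Of the 10 genes, 6 had a promoter in the RefSeq promoter table used here (assembly GRCm38.p6), namely Aqp1, Kcnj13, Kl, Otx2, Prlr and Slc4a5, with 11 windows between them, each of 250 bases before to 50 bases after an annotated start. Ttr, Folr1, Clic6 and Enpp2 were not matched. The letters TAATCC, the core that homeodomain proteins of the OTX family are known to bind, were searched for on both strands (TAATCC or GGATTA) because OTX2 is itself one of the genes. They stood in 1 of the 11 windows, an Otx2 start at which GGATTA began at position -211 from the start. Among all promoters of the table, 7.06% of 32851 windows held the letters, and 8.14% of 27025 genes had at least 1 window with them. The search is a count of letters and says nothing of binding. The 250 bases before the start are given for the Otx2 window with the motif, which is in capitals, and, for the comparison, for Kl and Aqp1, whose windows held no match. The Otx2 stretch lies at chr14:48665110-48665359 on the minus strand, the Kl stretch at chr5:150952357-150952606 on the plus strand and the Aqp1 stretch at chr6:55336049-55336298 on the plus strand, all GRCm38.p6 and written 5′ to 3′.
Otx2: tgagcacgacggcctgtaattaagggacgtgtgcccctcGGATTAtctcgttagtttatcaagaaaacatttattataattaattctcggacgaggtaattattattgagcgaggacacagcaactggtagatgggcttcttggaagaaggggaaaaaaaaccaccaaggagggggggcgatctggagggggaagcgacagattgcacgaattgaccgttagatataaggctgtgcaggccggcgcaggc
Kl: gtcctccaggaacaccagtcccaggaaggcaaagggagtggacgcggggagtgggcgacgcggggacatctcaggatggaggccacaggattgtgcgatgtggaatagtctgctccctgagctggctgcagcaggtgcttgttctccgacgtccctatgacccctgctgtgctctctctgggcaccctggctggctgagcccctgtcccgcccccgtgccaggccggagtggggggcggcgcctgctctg
Aqp1: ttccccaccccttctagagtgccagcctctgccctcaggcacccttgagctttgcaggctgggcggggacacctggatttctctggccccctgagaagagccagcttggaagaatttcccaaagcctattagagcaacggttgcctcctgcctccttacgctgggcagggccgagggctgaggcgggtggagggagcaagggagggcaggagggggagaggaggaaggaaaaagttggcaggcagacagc

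Total counts per library ranged from 11269915 to 34824450, of which 64.3 to 88.1% fell on ribosomal RNA features, so that 1819907 to 6399188 counts were left for other genes. Values are given as CPM, the normalised read count on library sizes corrected with TMM factors of 0.375 to 2.46, and 3 counts, the limit that a count of 0 allows, then correspond to 0.0678 to 0.361 CPM depending on the library. The libraries stood apart on the choroid plexus genes, with both labels, in unequal numbers, on either side. Ordered by Ttr, the widest step between neighbouring libraries was 4.24 on the log2 scale, from 5.29 CPM in NK6 to 102 CPM in NK7, a 19.2-fold step, while the next widest was 1.22. Below the step were NK1, NK2, NK3 and NK6, all labelled TAAR5-KO, and NK12, labelled TAAR5-WT. Above it were NK4 and NK5, labelled TAAR5-KO, and NK7 to NK11, labelled TAAR5-WT. The total counts were 18420441 to 34824450 in the libraries below the step and 11269915 to 21198210 in those above it, the ribosomal RNA shares were 65.3 to 88.1% and 64.3 to 87.4%, and the TMM factors were 0.375 to 2.4 and 0.493 to 2.46, and each of these ranges overlapped. The 3 deepest libraries by total counts, NK1, NK2 and NK3, were nevertheless all below the step, as were 4 of the 5 deepest. Counts outside ribosomal RNA were 2761965 to 6399188 below the step and 1819907 to 4096034 above it. By that measure the 3 deepest were NK12, NK6 and NK1, also below the step, while NK3 had the 2761965. The part of depth in the order of the libraries was not tested.

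The same 5 libraries were the lowest for all 10 genes. Among the 13902 features tested, 209, or 1.5%, had these 5 libraries below the other 7, and 158 had them above. Scaled by library size alone, the order was kept for 7 of the 10 genes and lost for Clic6, Otx2 and Enpp2, while 20 features, or 0.144%, showed it. NK4 was the highest library for 10 of the 10 genes and for 1446 of the 13902 features. The step was defined on Ttr, so the order of Ttr itself is not a result, and the order of the other 9 genes is described without a test.

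**Figure D1:**
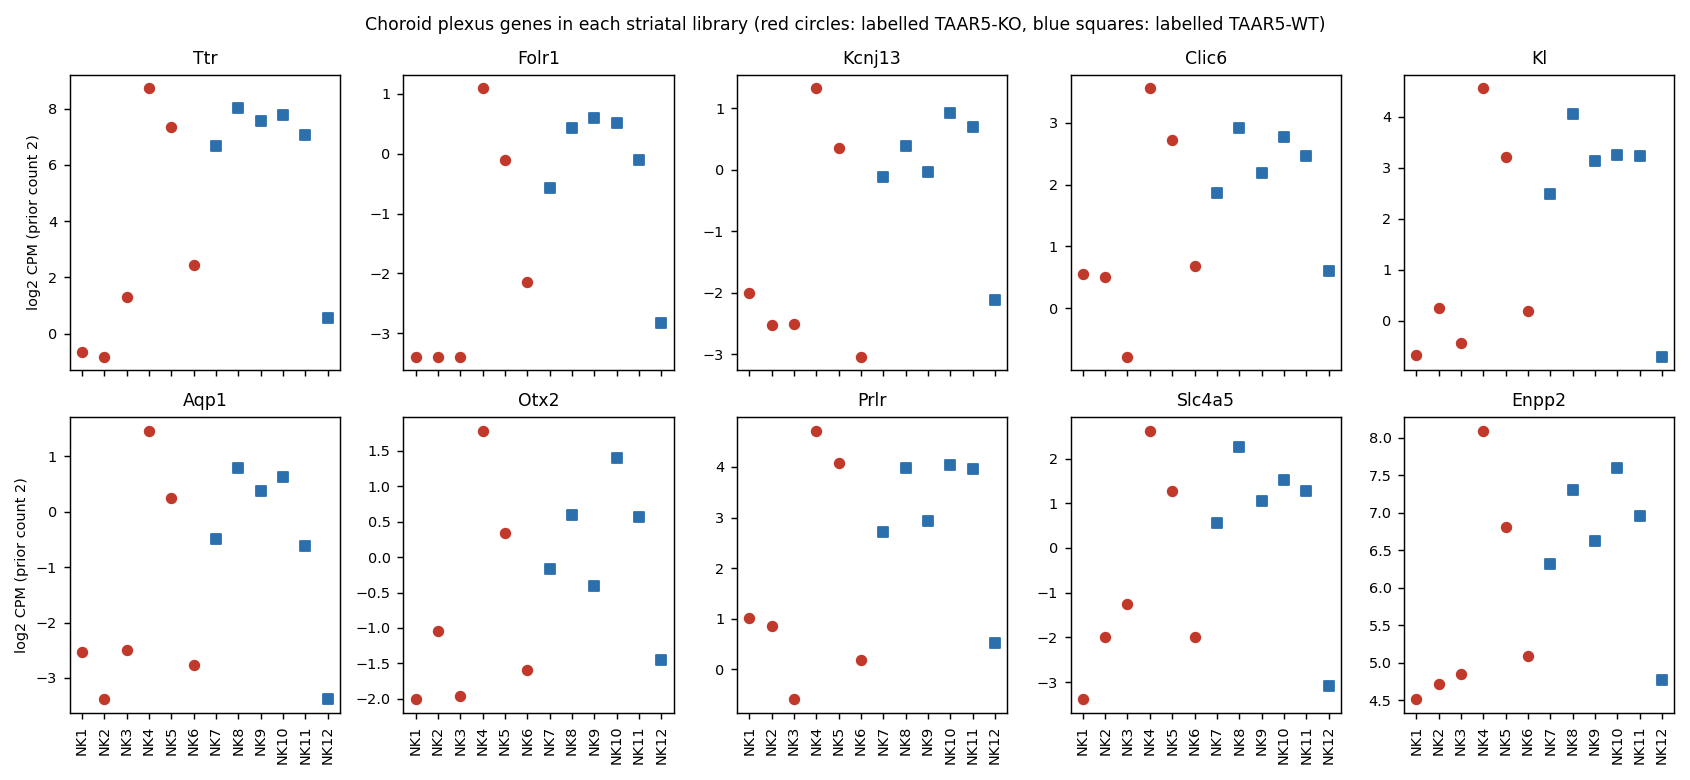
Level of each of the 10 choroid plexus genes, in log2 CPM with a prior count of 2 on the y axis, in each of the libraries NK1 to NK12 on the x axis, with red circles for the label TAAR5-KO and blue squares for TAAR5-WT. NK1, NK2, NK3, NK6 and NK12 lie below the other 7 libraries for every gene, and NK4 is the highest for every gene.

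Among the secreted proteins, Ttr (ENSMUSG00000061808.5, GRCm39 chromosome 18, 20798337 to 20807378) covered the widest range. From the highest to the lowest TAAR5-KO library it was at 427 CPM (NK4), 163 (NK5), 5.29 (NK6), 2.35 (NK3), 0.536 (NK1) and 0.468 (NK2). The TAAR5-WT libraries, in the same order, were at 258 CPM (NK8), 220 (NK10), 188 (NK9), 133 (NK11), 102 (NK7) and 1.38 (NK12). The TAAR5-KO label thus held both the lowest and the highest library, 912-fold apart, and the range of the TAAR5-WT libraries lay within that of the TAAR5-KO libraries. The lowest value rested on 6 counts and the highest on 6894.

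Enpp2 (chromosome 15, 54702297 to 54816288), which encodes autotaxin, a secreted enzyme that makes lysophosphatidic acid, differed from the rest in never approaching 0. Its level in the TAAR5-KO libraries was 273 CPM (NK4), 112 (NK5), 34.1 (NK6), 28.9 (NK3), 26.3 (NK2) and 22.7 (NK1). The TAAR5-WT libraries were at 193 CPM (NK10), 158 (NK8), 124 (NK11), 98.6 (NK9), 79.5 (NK7) and 27.3 (NK12). The 5 libraries with little Ttr lay within 22.7 to 34.1 CPM of Enpp2, with 297 to 1307 counts. Enpp2 is also known from oligodendrocytes, whose summed markers (10 genes) ranged from 213 to 257 CPM in the libraries labelled TAAR5-KO and from 198 to 263 CPM in those labelled TAAR5-WT, a 1.33-fold range over all 12. The part of these cells in the Enpp2 values was not tested.

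Kl (chromosome 5, 150876072 to 150917282) encodes klotho, a membrane protein that serves as a coreceptor for FGF23 and is also shed. Its lowest, median and highest levels were 0.536, 1.07 and 23.6 CPM under the TAAR5-KO label and 0.520, 9.02 and 16.7 CPM under the TAAR5-WT label. Prlr (chromosome 15, 10177324 to 10349266), the prolactin receptor, had 0.567, 1.82 and 26.2 CPM under the TAAR5-KO label and 1.33, 11.6 and 16.3 CPM under the TAAR5-WT label. The highest and lowest libraries were 45.4-fold apart for Kl and 46.2-fold apart for Prlr, and for both genes the medians of the labels were far apart while the ranges overlapped.

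The channels and carriers were read at lower depth. Clic6 (chromosome 16, 92282624 to 92338131), a protein of the intracellular chloride channel family, had a lowest, median and highest level of 0.486, 1.45 and 11.7 CPM under the TAAR5-KO label and 1.42, 4.94 and 7.43 CPM under the TAAR5-WT label, a 24.1-fold range. Slc4a5 (chromosome 6, 83196810 to 83281927) encodes the electrogenic sodium bicarbonate cotransporter NBCe2, and ran from 0 counts to 6.07 CPM under the TAAR5-KO label and from 0.0226 to 4.68 CPM under the TAAR5-WT label, with medians of 0.240 and 2.14 CPM. Kcnj13 (chromosome 1, 87314085 to 87322451), the inward rectifier potassium channel Kir7.1, had medians of 0.117 and 1.04 CPM and maxima of 2.42 and 1.81 CPM. Slc4a5 in NK4 was at least 26.4-fold higher than the limit of 3 counts in NK1, where it had none. For Kcnj13 the ratio of NK4 (39 counts) to NK6 (1 count) was 92.6, with an exact 95% counting interval of 15.7 to 3752. Kcnj13 shares 623 of its 1270 exon bases with exons of Gigyf2 on the opposite strand, and the strand setting of the counting is not given in the sources used here. Gigyf2 was at 21.6 to 27.3 CPM in all 12 libraries while Kcnj13 was at 1 count in 3 of them.

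Aqp1 (chromosome 6, 55313417 to 55325540), the water channel of the apical membrane, had 0 to 2 counts in the 5 libraries below the step and 11 to 43 counts in the 7 above it. Its medians were 0.0788 CPM under the TAAR5-KO label and 0.908 CPM under the TAAR5-WT label, and its maxima 2.66 and 1.63 CPM. Folr1 (chromosome 7, 101507538 to 101519995), the folate receptor that takes part in the delivery of folate to the fluid, had no count in NK1, NK2 and NK3, 5 counts in NK6, 2 in NK12 and 11 to 33 in the other 7. Its medians were 0.0652 and 1.04 CPM and its maxima 2.04 and 1.42 CPM. Where a gene had no count a fold can only be bounded by the limit of 3 counts, and in NK4 Aqp1 was at least 11.4-fold higher than in NK2 and Folr1 at least 8.90-fold higher than in NK1.

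Otx2 (chromosome 14, 48895134 to 48911276), the homeodomain factor that the choroid plexus keeps into adult life, had 2 to 12 counts in the libraries below the step of Ttr and 6 to 54 in those above. In CPM its lowest, median and highest values were 0.153, 0.313 and 3.35 under the TAAR5-KO label and 0.271, 1.09 and 2.53 under the TAAR5-WT label. The step between the 5 lowest libraries and the next was the narrowest of the 10 genes, from 0.390 to 0.656 CPM, or 1.68-fold, and the ratio of NK4 (54 counts) to NK1 (2 counts) was 21.8, with an exact 95% counting interval of 5.76 to 185.

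Set per kilobase of merged exon, the genes differed in level by more than the spread allows for only part of the order. The median over the 12 libraries was 98.9 CPM per kb for Ttr, 15.4 for Enpp2 and 1.02 for Clic6. Enpp2 lay above Clic6 in 12 of 12 libraries and Clic6 above Kl in 12 of 12, whereas Ttr lay above Enpp2 in 7 of 12, which are the libraries above the step. The medians of Kl, Kcnj13 and Prlr were 0.766, 0.671 and 0.459 CPM per kb, and Kl lay above Kcnj13, as Kcnj13 did above Prlr, in 7 of 12 libraries. Prlr lay above Folr1, at 0.306 CPM per kb, in 11 of 12 libraries. Folr1, Slc4a5, Aqp1 and Otx2 had medians of 0.306, 0.288, 0.222 and 0.172 CPM per kb, and neighbours in this order kept it in 5, 8 and 5 of 12 libraries, so these 4 cannot be ranked. In NK4, the library with the most of each gene, Ttr stood at 360 and Enpp2 at 47.3 CPM per kb.

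The spread of the 10 genes among libraries was wide beside that of the other features. The SD of log2 CPM was 1.28 to 3.75 for the 10 genes, against a median of 0.278 over the 13902 features, and the genes ranked 2 to 62 in it. By the dispersion estimated in the fit they ranked 8 to 74, so that 10 of 10 were among the 100 most dispersed features.

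In the 7 libraries above the step, where every gene was counted, the genes could be set against Ttr as a percent of its counts in the same library, which no scaling between libraries touches. Aqp1 was at 0.417 to 0.671% of Ttr, with a coefficient of variation over the 7 libraries of 14.2%, and Folr1 at 0.479 to 0.755%, with 16.9%. Counting error alone would give about 24.1 and 24.0%, so a difference between libraries was not detectable for either gene at this depth. Kl was at 4.27 to 6.98% (coefficient of variation 16.9%, counting error 8.36%) and Slc4a5 at 1.05 to 1.81% (18.5%, against 16.3%). Clic6 was at 2.38 to 4.07% of Ttr, with a coefficient of variation of 19.8% against 10.7% from counting.

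Larger departures from a fixed ratio were seen for Prlr, Otx2 and Kcnj13. Prlr ran from 4.01% of Ttr in NK9 to 11.7% in NK11, a 2.92-fold range with a coefficient of variation of 36.1% against 7.59% from counting error. Otx2 ran from 0.349% in NK9 to 1.15% in NK10 (35.5%, against 23.3%) and Kcnj13 from 0.465% in NK9 to 1.15% in NK11 (33.9%, against 22.8%). Enpp2, with the most reads after Ttr, ran from 52.4% in NK9 to 93.5% in NK11, and its coefficient of variation of 20.5% stood against 2.88% from counting. NK9 gave the lowest ratio for 6 of the 9 genes and NK11 the highest for 5.

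**Figure D2:**
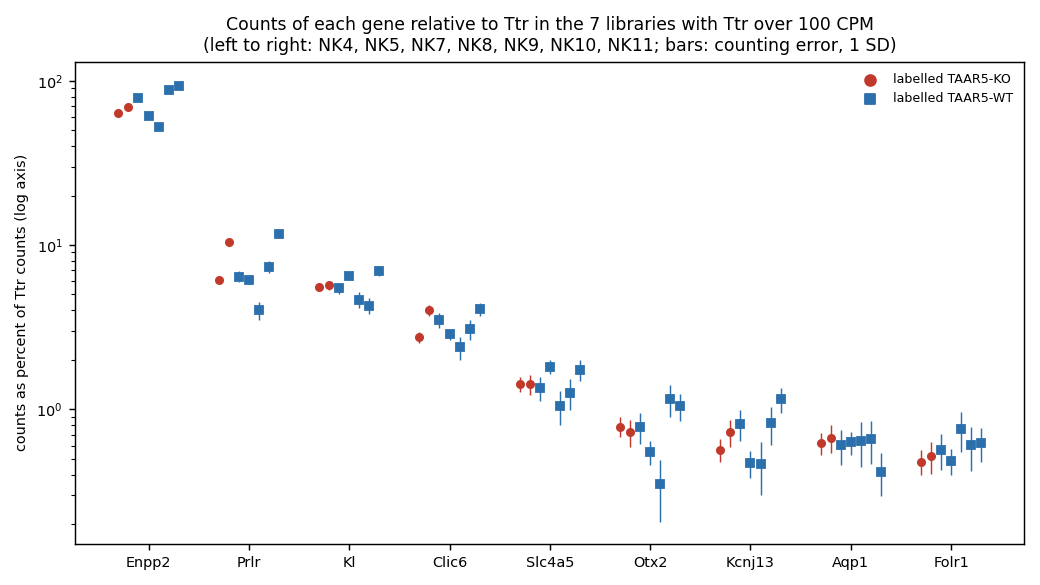
Counts of each of the 9 other choroid plexus genes as a percent of the Ttr counts in the same library, on a log axis, for the 7 libraries above the step of Ttr, with bars of 1 SD of counting error. The points of Aqp1 and Folr1 lie close together, at 0.417 to 0.671% and 0.479 to 0.755%, and those of Prlr run from 4.01 to 11.7%.

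Because the 12 libraries fall into separate sets, the relation of each gene to Ttr was computed within the 7 libraries above the step, on log2 CPM, with exact permutation tests over 5040 orders, two-sided. The 7 libraries were taken after the values were seen, the genes share library depth and scaling, and the p values are unadjusted for the 9 relations. Aqp1 had Pearson's r = 0.965 (exact permutation p = 0.0008) and Spearman's rho = 0.964 (exact p = 0.0028), and without NK4 and NK7, the 2 libraries farthest from the median of Ttr, r was 0.942. Folr1 had r = 0.940 (exact p = 0.0042, rho = 0.857, exact p = 0.0238) and 0.772 without those libraries. Kl had r = 0.934 (exact p = 0.003, rho = 0.857, exact p = 0.0238) and 0.685 without them, and Slc4a5 r = 0.931 (exact p = 0.0028, rho = 0.857, exact p = 0.0238) and 0.736. Clic6 had r = 0.910 (exact p = 0.0083, rho = 0.893, exact p = 0.0123) and Enpp2 r = 0.897 (exact p = 0.0071, rho = 0.821, exact p = 0.0341), with 0.535 and 0.577 without the 2 libraries. In these 6 genes the relation thus kept its sign without NK4 and NK7, on 5 libraries.

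Otx2, Prlr and Kcnj13 followed Ttr less closely in value. Their r was 0.734 (exact p = 0.0599, rho = 0.714, exact p = 0.0881), 0.718 (exact p = 0.0661, rho = 0.679, exact p = 0.1095) and 0.715 (exact p = 0.069, rho = 0.679, exact p = 0.1095). Without NK4 and NK7 it was 0.256 for Otx2, -0.01 for Prlr and -0.04 for Kcnj13, on 5 libraries with a narrower range of Ttr. Without NK4 alone it was 0.471, 0.517 and 0.403, and without NK7 alone 0.661, 0.532 and 0.586, in the same order of genes. Whether these 3 correlations differ from the other 6 was not tested. Over all 45 pairs of the 10 genes r was positive, from 0.552 to 0.987 with a median of 0.845, which was 0.706 without NK4.

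**Figure D3:**
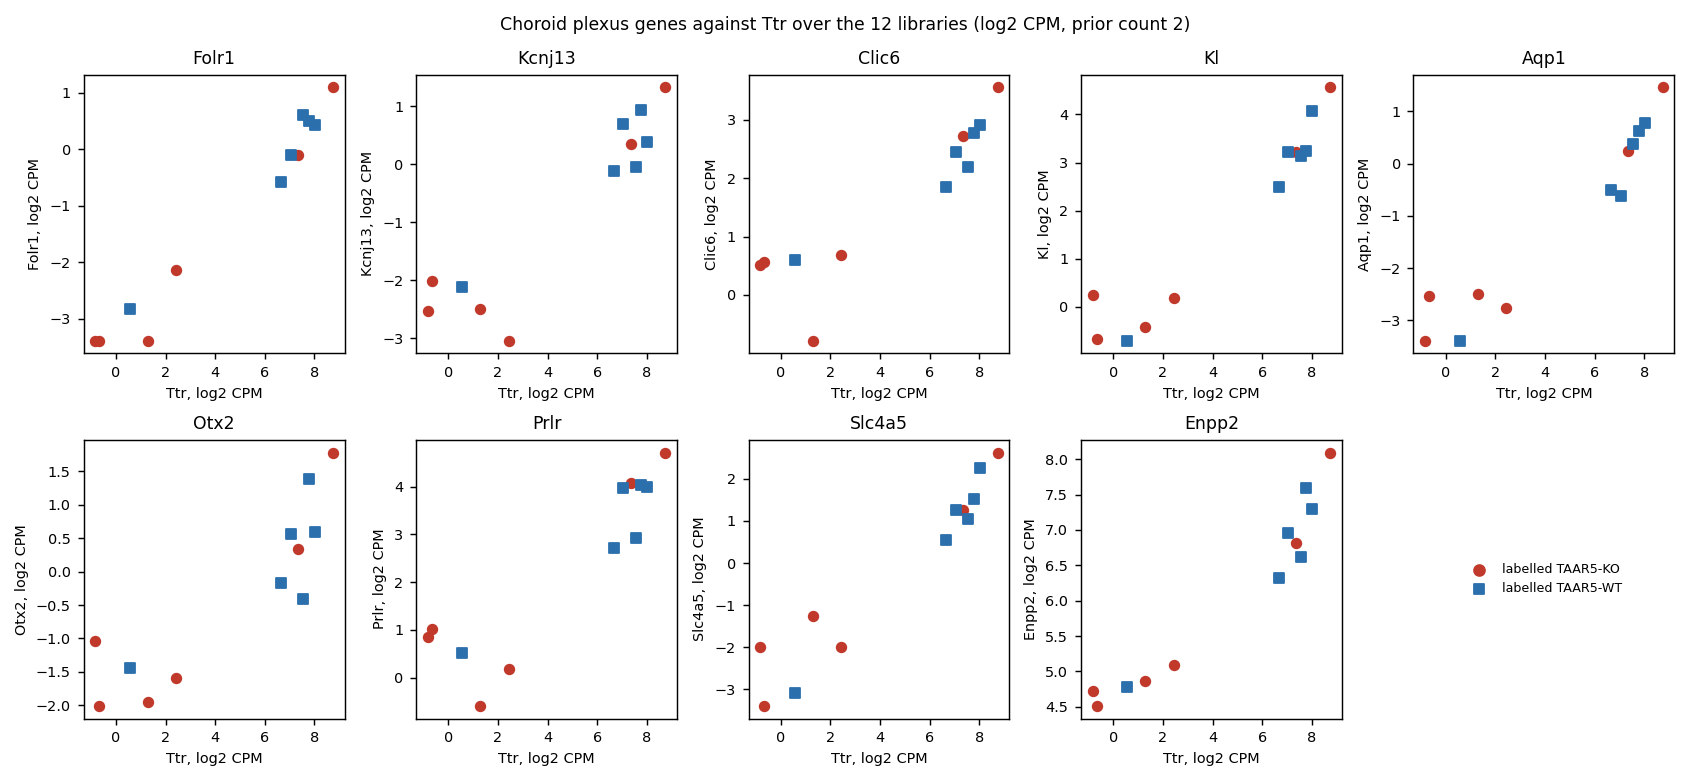
Log2 CPM of each of the other 9 choroid plexus genes against log2 CPM of Ttr, 1 point per library, with red circles for the label TAAR5-KO and blue squares for TAAR5-WT. The 5 libraries with Ttr at or below 5.29 CPM and the 7 at or above 102 CPM form separate sets in every panel.

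The features whose log2 CPM was most like that of Ttr over the 12 libraries were ranked by Pearson's r, given here as the measure of likeness and with no test since the separate sets of libraries dominate it. Of the 13901 other features 48 had r over 0.9, and the 9 other choroid plexus genes ranked 2 (Folr1) to 80 (Otx2). Outside the 10 genes, the 10 most alike had r of 0.948 to 0.984. They were Tmem72, Mfrp, Cldn2 (a tight junction claudin of leaky epithelia), Sostdc1 (a secreted antagonist of BMP and Wnt ligands), F5 (coagulation factor V), Ecrg4, Prr32, Sgms2 (a sphingomyelin synthase), Kcne2 (a potassium channel subunit) and Lbp (lipopolysaccharide binding protein). In 10 of these 10 the same 5 libraries were the lowest, beside 1.5% of all features tested. That order is largely built into a ranking by r over these sets of libraries and is no separate result. Tmem72, the most alike, was at 0.0766 to 0.243 CPM in those 5 libraries and at 2.23 to 11.3 CPM in the other 7, and F5 at 0.0810 to 0.496 and 3.89 to 14.4 CPM. Within the 7 libraries r with Ttr was 0.996 for Ecrg4, 0.965 for Cldn2 and 0.957 for Tmem72, and it was 0.739 for Prr32.

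Between the labels none of the 10 genes passed an adjusted p of 0.1 (edgeR's likelihood ratio test, Benjamini-Hochberg over 13902 features), and the background was 1.65% of the features tested, 133 higher and 96 lower under the TAAR5-KO label. The log2 fold changes of TAAR5-KO minus TAAR5-WT were negative in 10 of 10, from -0.81 (Folr1) to -0.33 (Clic6 and Otx2) with a median of -0.46, beside a median of -0.01 over all features tested. The 10 genes share the order of the libraries, so their signs are not separate observations. Adjusted p values were 0.770 to 0.908, and 0 of the 10 had an unadjusted p under 0.05, where the lowest was 0.340. By edgeR's quasi-likelihood test the adjusted p values were 0.798 to 0.957. By DESeq2 they were 0.843 to 0.911 for Ttr, Clic6, Kl, Prlr and Enpp2, and missing for the other 5.

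The intervals show how little these 6 against 6 libraries constrain the difference. Ttr was at 99.7 ± 173 CPM (SD, n = 6) under the TAAR5-KO label and 150 ± 92.6 CPM (SD, n = 6) under the TAAR5-WT label, with a fitted log2 fold change of -0.59 (SE 1.07, 95% interval -2.69 to 1.5). The mean log2 CPM of the labels differed by -3.22 for Ttr, and the exact permutation test of that difference gave p = 0.178 over 924 assignments, two-sided, where the smallest possible is 0.00216. The fit compares mean levels, in which NK4 counts for most under the TAAR5-KO label, whereas the mean of logs weighs each library alike. Enpp2 was at 83.0 ± 99.3 CPM (SD, n = 6) and 113 ± 58.6 CPM (SD, n = 6), with -0.45 (SE 0.53, 95% interval -1.48 to 0.58). These SEs were derived from the likelihood ratio statistic. DESeq2 gave larger SEs, 1.385 for Ttr and 0.673 for Enpp2, so intervals from it would be wider.

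The difference between the labels depended on NK4 for each of the genes. NK4 was the highest library for all 10 genes and is labelled TAAR5-KO, so a lower fold change without it was fixed in advance. Without it all 10 fold changes were lower, with a median of -1.69, 8 of the 10 had an unadjusted p under 0.05 (13.7% of the 13829 features tested without NK4 did), and Enpp2 passed at -1.34 (SE 0.42, adjusted p = 0.0728 by the same test), where 2.99% of the features passed. The 10 genes share the order of the libraries, so these 8 are not separate observations of a difference. Ttr was at -2.13 without NK4 (adjusted p = 0.363). No other library, left out in turn, brought a gene past the threshold, and the lowest adjusted p without NK12 was 0.661. Without NK10 the fold change of Otx2 was 0.02.

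**Figure D4:**
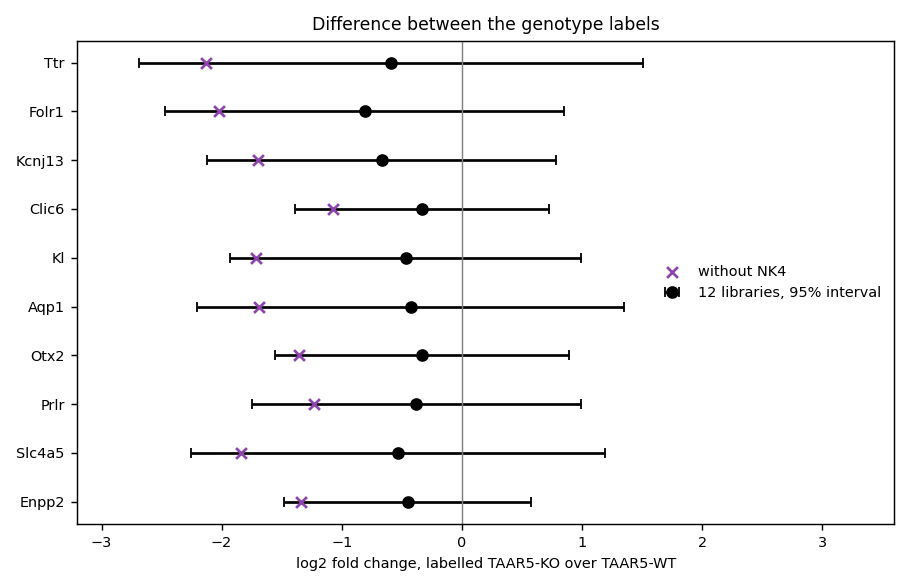
Fitted log2 fold change of TAAR5-KO minus TAAR5-WT for each of the 10 choroid plexus genes, with a circle and a bar for the value and 95% interval from all 12 libraries and a cross for the value without NK4. All 10 intervals from the 12 libraries span 0, and the values without NK4 lie further below, with a median of -1.69.

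Other choroid plexus genes, 24 in all and listed with earlier results of these data known, followed the same order of libraries. Of these 24, 19 were tested and 0 passed in either direction, where 1.65% of all features tested did. The fold change was negative in 17 of the 19, with a median of -0.37 beside -0.01 over all features tested. The same 5 libraries were the lowest for 18 of the 24, among them Tmem72, Cldn2, Kcne2, Sostdc1, Mfrp and F5. Of the 19 tested, 17 had this order, beside 1.5% of all features tested. Genes that share the order of the libraries do not give separate observations of the sign. Their summed level ran from 11.3 CPM in NK1 to 102 CPM in NK4 under the TAAR5-KO label and from 12.7 to 64.3 CPM under the TAAR5-WT label. Cab39l, the gene of the list with the highest mean at 6.65 CPM, is expressed in other cells too, and was at 2.76 CPM or more in all 12 libraries. Without NK4, Slc13a4, a sulfate transporter, passed at -1.55 (SE 0.35, adjusted p = 0.0038), and Igfbp2, which binds insulin-like growth factors, at -0.97 (SE 0.32, adjusted p = 0.0975), both by edgeR's likelihood ratio test, which without NK4 called 2.99% of the features.

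Markers of other cells that the dissected slice could hold were summed per library, and their part in the choroid plexus values was not tested. Ependyma, the ciliated lining of the ventricles (12 genes, 11 in the table), ran from 4.29 to 22.4 CPM under the TAAR5-KO label and 7.39 to 14.4 CPM under the TAAR5-WT label. It was highest in NK4 and lowest in NK1, and shared 4 of its 5 lowest libraries with Ttr, yet only Cfap126 of its genes had all 5. The overlap was not particular to ependyma. Oligodendrocyte markers, within their 1.33-fold range, also shared 4 (their 5 lowest were NK1, NK2, NK3, NK5 and NK12), and leptomeningeal and pituitary markers shared 3 each. Cortical pyramidal neuron markers ran from 47.3 CPM in NK4 to 138 CPM in NK12. Their 5 lowest libraries, NK4, NK5, NK8, NK9 and NK10, were all among those with high Ttr. The order was not a plain reverse, since NK11 and NK7, also with high Ttr, were at 120 and 97.9 CPM, above NK1 at 84.5 CPM. Pituitary genes (Prl at the highest mean, 6.55 CPM) ranged 180-fold with their maximum in NK11, and Gh passed the threshold in the lower direction (adjusted p = 0.0668 by edgeR's likelihood ratio test). Its adjusted p was 0.180 by the quasi-likelihood test of edgeR, short of the threshold, and missing by DESeq2. Of the tested genes of the other lists 0 of 10 ependymal, 0 of 10 oligodendrocyte, 0 of 7 leptomeningeal, 0 of 8 endothelial, 0 of 8 cortical and 0 of 8 spiny neuron genes passed. Markers of leptomeninges, endothelium and spiny neurons ranged 2.57-fold, 1.48-fold and 2.12-fold, and spiny neuron markers, which define the labelled tissue, were at 143 to 303 CPM in all 12 libraries.

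Within the 7 libraries above the step, Ttr was set against 12 such measures. The other choroid plexus genes gave r = 0.970 (exact permutation p = 0.0008, adjusted 0.0095 over the 12, rho = 0.893 with adjusted p = 0.148), and r was 0.868 without NK4 and NK7. That list was made with earlier results of these data known, and the 7 libraries were taken after their Ttr values were seen. It holds 8 of the 10 features most like Ttr, so these p values are no independent test of the relation. No other measure passed 0.1 after adjustment. Ependyma had r = 0.766 (exact p = 0.0446, adjusted 0.252, rho = 0.643) and 0.0353 without NK4 and NK7. Cortical pyramidal neurons had r = -0.73 (exact p = 0.0629, adjusted 0.252, rho = -0.64) and -0.43 without them. The share of ribosomal RNA had r = 0.640 (exact p = 0.1236, adjusted 0.371, rho = 0.643) and 0.468 without them.

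**Figure D5:**
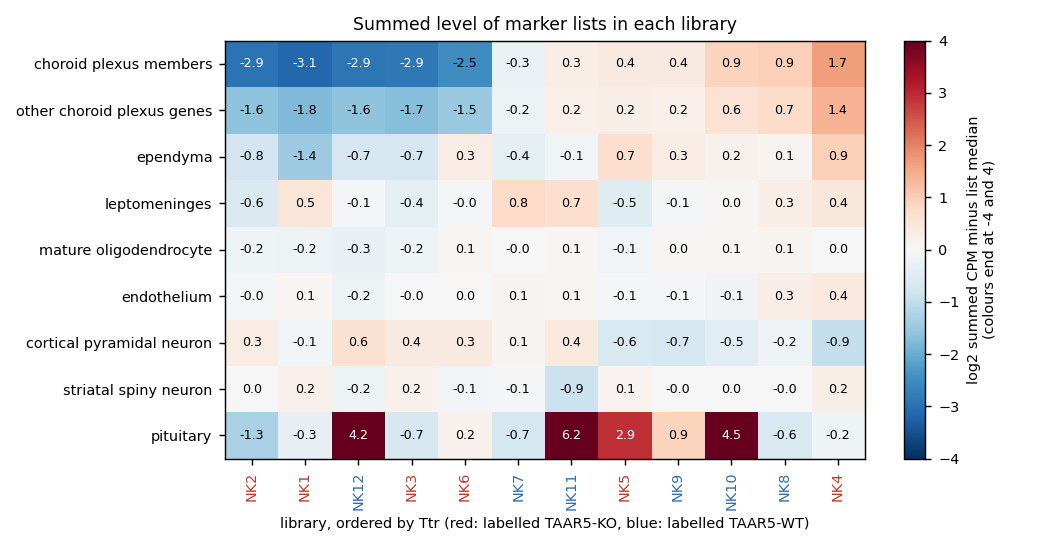
Heat map of the summed level of each marker list (rows) in each of the 12 libraries (columns, ordered by Ttr), as log2 summed CPM minus the median of the list, with the label of each library in red for TAAR5-KO and blue for TAAR5-WT. The other choroid plexus genes run from 11.3 to 102 CPM, the ependymal list from 4.29 to 22.4 CPM, and the oligodendrocyte list stays within a 1.33-fold range.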

How the data were processed

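Striatal RNA of 6 mice per genotype was depleted of ribosomal RNA, made into directional libraries and sequenced. The authors trimmed reads with Cutadapt 4.1, aligned them with STAR 2.7.11b to GRCm39 (GENCODE M35) and deposited whole-number counts per gene from featureCounts 2.0.6, without normalization or pooling, with the merged exon length. The handling of strand and of reads with several matches is not given in the sources used here. A further 12 columns of counts in the file were left out. Columns carry a label and a number not tied to an animal, so p values measure the spread between these libraries.

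Features with CPM of at least 0.5 on total counts in at least 3 libraries were kept. The study's methods give these thresholds without the library sizes they apply to. On sizes corrected with TMM factors 13053 features pass, the number the study reports for its own test, whereas the main filter here kept 13902. In that setting 234 features were called against 229, and 0 of the 10 choroid plexus genes. TMM factors and the likelihood ratio test of edgeR 4.0.16 (R 4.3.3), without covariates, compared the labels at a Benjamini-Hochberg adjusted p under 0.1 over all features. The quasi-likelihood test, DESeq2 1.42.0, other scalings and filters, and each library left out in turn were alternatives. Log2 CPM used a prior count of 2. The planned correlations over 12 libraries were replaced by those over the 7 libraries above the step of Ttr, since pooled values would reflect the separate sets. Genes named are the 10 choroid plexus genes, the 10 features most correlated with Ttr, and, of each marker list, genes that passed or had the highest level. Other named genes were chosen after their values were seen. The genes and lists were chosen with earlier results of these data known. The fit was tested on simulated data. Limits from counts cover counting error only.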

Additional observations from a re-analysis of the deposited data

Results flagged for a closer look

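Of the 20 groups tested, the 6 libraries of each label for each of the 10 choroid plexus genes, 2 held a library far from the others on CPM. A rate of about 1 in 20 by chance holds for separate groups, whereas these genes share the libraries and their order, so it does not apply here. In NK4, labelled TAAR5-KO, Otx2 was at 3.35 CPM, and the gap to the next library was 0.680 of the range of its label. In the same library Enpp2 was at 273 CPM, with a gap of 0.643. The critical value for 6 libraries is 0.625. Both flags are for the same library, which was the highest for all 10 genes. Gaps on log2 CPM were not tested. On that scale NK12 stood apart for Ttr under the TAAR5-WT label, at 0.56 beside 6.67 in NK7, the next lowest.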

How the results depend on the processing

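No paired analysis was possible because the count columns carry numbers from NK1 to NK12 that are not the animal numbers of the labels, so that the labels share no replicate number. In 8 other settings all 80 fold changes of the 10 genes were negative and none passed the threshold, between -0.84 and -0.19. When libraries were scaled by size alone, however, the median of all features tested was also negative, at -0.49. There only Folr1 (-0.55) and Kcnj13 (-0.62) lay below that median, and the other genes ran from -0.37 (Slc4a5) to -0.20 (Prlr). The negative sign in that setting thus does not place the 10 genes as a set below the other features. With each library left out the fold changes of the 10 genes ran from -2.13 to 0.02. Otx2 ran from -1.36 (without NK4) to 0.016 (without NK10), a change of sign with an SE of 0.64. The number of choroid plexus genes past the threshold ran from 0 to 1 with each library left out, and that of the other choroid plexus genes from 0 to 2, both highest without NK4. The median r over the 45 pairs ran from 0.706 to 0.890 with each library left out, and was 0.928 with scaling by library size alone. Without NK4 and NK7 the r with Ttr fell to -0.04 for Kcnj13 and to -0.009 for Prlr. Of all features 229 passed in the likelihood ratio test, 63 in the quasi-likelihood test, 93 with no filter beyond 1 count, 7 (0 higher, 7 lower) with library size as the only scaling, which moved the median of all features to -0.49, and 85 to 414 with a library left out. The causes were not tested. Depth limits Folr1, Kcnj13, Aqp1, Otx2 and Slc4a5, which had 3 counts or fewer in their lowest library.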
